A study of Homo sapiens with 6 samples.

Results

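TNF, LTB, TNFSF10, TNFRSF10A, TNFRSF10B, FAS, TNFRSF9, TNFAIP3, BIRC3 and TRAF1 form the group of TNF, death receptor and TNF feedback genes described here, taken by symbol as 10 of the 59653 rows of the count table. After knockdown of the long noncoding RNA PVT1, RNA levels of the death ligands TNF and TNFSF10 were higher and passed both thresholds set below. The death receptor FAS was lower, and the feedback genes did not move alike, since TNFAIP3 and BIRC3 were higher and TRAF1 was lower. These smaller changes passed the adjusted p but not the fold threshold. The cells were SK-OV3, an established line from a human ovarian cancer, and RNA was sequenced at 48 h after transfection with a control siRNA (siControl, 3 libraries) or with a pool of siRNAs against PVT1 (siPVT1, 3 libraries). Both groups were therefore transfected cells of the same line, and the knockdown was transient. The labels do not say whether the replicates were separate cultures, so p-values measure only the spread between these libraries, which may be technical.

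Library totals ranged from 28383171 to 35059576 estimated counts. PVT1 itself, the targeted gene, had normalized counts of 3298, 4090.5 and 3377 in siControl and of 2349.7, 2111 and 2062 in siPVT1, so that the groups did not overlap. Its log2 fold change was −0.72 (SE 0.0967, adjusted p = 0.000342, edgeR quasi-likelihood test with Benjamini-Hochberg adjustment), with 2174 ± 154 normalized counts in siPVT1 and 3588 ± 437 in siControl. Here a normalized count is a count scaled to the mean effective library size after TMM, a scaling that assumes most genes do not change. A gene was called changed when its adjusted p was below 0.05 and its log2 fold change was at least 1 in size, and "adjusted p alone" refers to the first criterion. PVT1 itself was lower by adjusted p alone and was not called. Its siPVT1 mean was 0.606 of its siControl mean, so the knockdown was partial. Values written with ± are means and SDs of n = 3 libraries. Replicates within siPVT1 differed more from each other than those within siControl, since the chi-square of their counts, divided by its degrees of freedom, was 8.62 to 45.3 between siPVT1 pairs and 1.75 to 5.67 between siControl pairs.

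TNF is a cytokine that binds TNFRSF1A on almost all cells and TNFRSF1B on a narrower set, and the receptor assembles a complex of adaptors, ubiquitin ligases and kinases that releases NF-kB to the nucleus. NF-kB then switches on genes that restrain the same pathway, among them TNFAIP3 (A20, which edits ubiquitin chains), BIRC3 (cIAP2, a ubiquitin ligase that blocks death signalling) and TRAF1 (an adaptor bound to TRAF2). TNFSF10 (TRAIL) and the ligand of FAS bind receptors with a death domain that recruit FADD and caspase-8, and when the caspase is active the cell dies by apoptosis.

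Promoter sequences of these genes are shown first, because several of the 10 are known NF-kB targets. RefSeq promoter windows of 250 bases before the transcription start (GRCh38.p14) were available for 8 of the 10 genes. The NF-kB consensus was searched by name on both strands, together with the AP-1 element TGANTCA and the core of the interferon response element, GAAANNGAAA. None of the matches overlapped a match of another motif. Where a gene had several start sites, a match in any window was counted. The NF-kB consensus was found in BIRC3, FAS, LTB, TNFAIP3 and TNFRSF9, that is in 5 of the 8 genes and in 6 of their 13 windows, against 5.21% of all 35116 promoter windows. The windows of LTB nearly coincide, so the same LTB site is counted in each of them. AP-1 was found in FAS and TNFRSF9 (2 of the 13 windows, 6.57% of all windows) and the interferon element in TNFSF10 alone among the 8 (1 of the 13 windows, 3.02% of all windows). A match is a description of the letters, and the windows of TNF and TRAF1 held none of the 3 motifs. In GENCODE the printed stretches of LTB and TNFRSF9 lie within the gene and overlap an exon, so they are upstream of the RefSeq start only. The stretches of 5 genes are printed 5′ to 3′ on the strand of the gene, with the matches in capitals, for TNFAIP3 (chr6:137867147-137867213, plus strand), BIRC3 (chr11:102317260-102317383, plus strand), LTB (chr6:31582492-31582521, minus strand), TNFRSF9 (chr1:7940894-7940923, minus strand) and TNFSF10 (chr3:172523568-172523657, minus strand, interferon element).
TNFAIP3: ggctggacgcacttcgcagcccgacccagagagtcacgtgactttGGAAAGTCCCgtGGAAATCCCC
BIRC3: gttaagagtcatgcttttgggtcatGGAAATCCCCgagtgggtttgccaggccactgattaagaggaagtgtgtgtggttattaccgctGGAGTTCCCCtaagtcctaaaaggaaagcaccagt
LTB: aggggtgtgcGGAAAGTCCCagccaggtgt
TNFRSF9: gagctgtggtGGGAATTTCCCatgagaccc
TNFSF10: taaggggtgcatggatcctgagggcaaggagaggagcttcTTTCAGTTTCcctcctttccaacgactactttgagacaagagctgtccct

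Among the ligands, TNF (ENSG00000232810.5; chromosome 6, 31575565 to 31578336, plus strand; 4 exons) was low but measurable in the control cells. Its normalized counts were 112, 119 and 113 in siControl and 198, 281 and 367 in siPVT1. Every siPVT1 library lay above every siControl library, but the siPVT1 libraries were far apart and the siControl libraries close together. The means of 115 ± 3.86 and 282 ± 84.6 gave a log2 fold change of 1.30 (SE 0.210, adjusted p = 0.00094, edgeR quasi-likelihood test). The gene stayed called without siPVT1 replicate 3, the highest library, at a log2 fold change of 1.05. When the test was made against a 2-fold change instead of against no change, the adjusted p was 0.202 (edgeR), so the size of the rise is not shown to exceed 2-fold. An exact permutation test over the 6 libraries gave p = 0.1, the smallest that 3 against 3 allows.

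TNFSF10 (ENSG00000121858.11; chromosome 3, 172505508 to 172523475, minus strand; 5 exons), the ligand of the TRAIL receptors, rose the most of the 9 tested genes. Only 10, 8 and 13 counts were found in siControl, against 52, 64 and 63 in siPVT1. Normalized, these were 9.52, 8.08 and 12.01 against 57.9, 69.9 and 59.2. Every siPVT1 library was above all siControl libraries, and here the siPVT1 libraries lay close together (coefficient of variation 10.6%). The log2 fold change was 2.64 (SE 0.243, adjusted p = 4.7e-05, edgeR quasi-likelihood test). The summed counts rose 6.27-fold after scaling, with an exact 95% interval from 4.26 to 9.50 that covers counting error only.

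LTB (ENSG00000227507.3; chromosome 6, 31580525 to 31582522, minus strand; 4 exons), a subunit of the lymphotoxin heterotrimer, had 1, 2 and 0 counts in siControl and 2, 3 and 0 in siPVT1. Both groups were at or under 3 counts per library, so the gene was not tested and no fold is given. Its RefSeq promoter window held an NF-kB match, as printed above, and at this depth its RNA was found as at most 3 counts in any library.

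**Figure D1:**
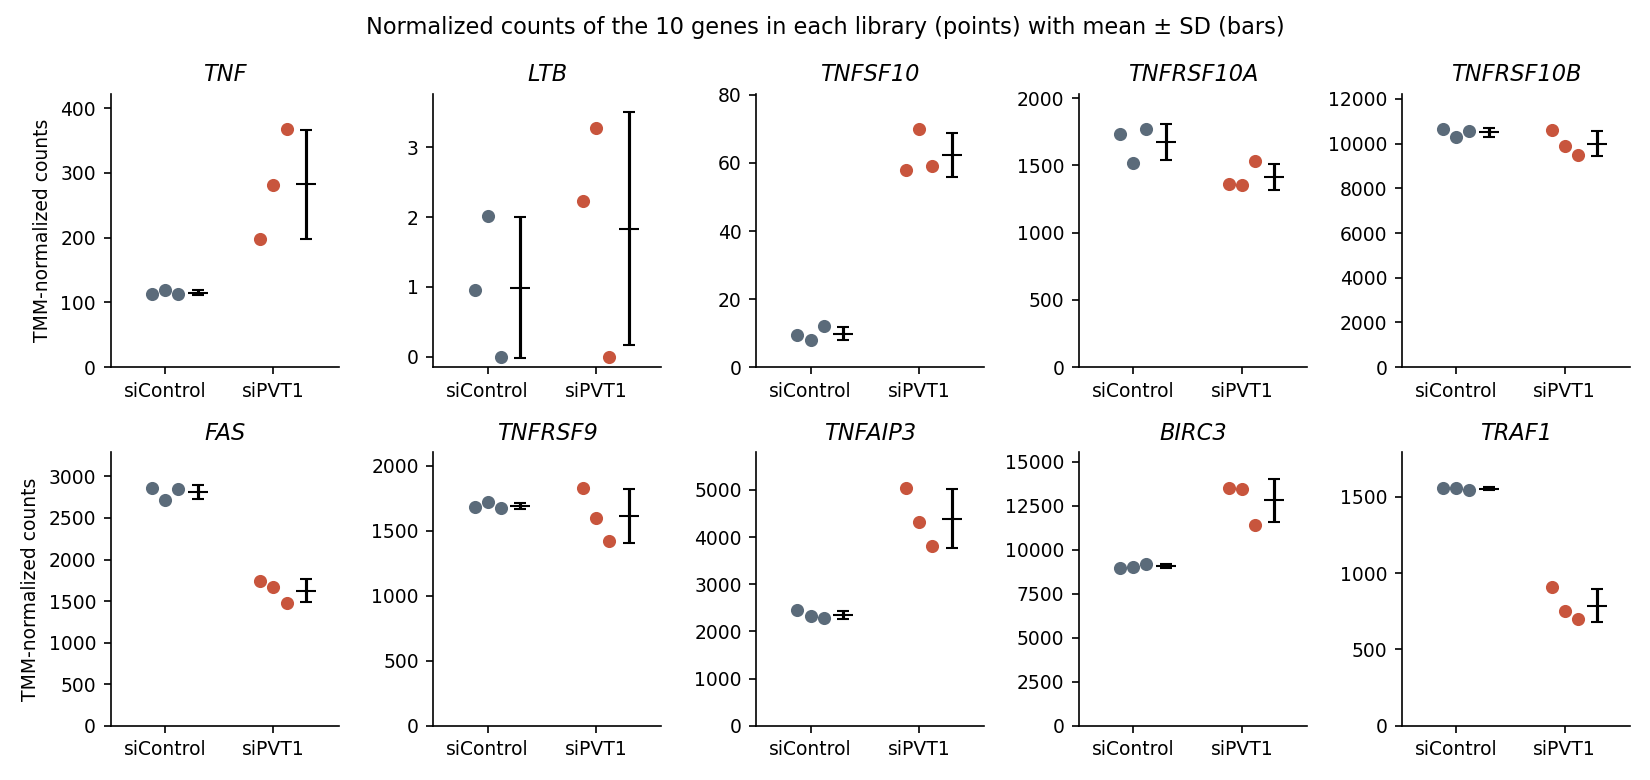
Normalized counts (vertical axis, TMM-scaled) of each of the 10 genes in the 3 siControl and 3 siPVT1 libraries (points), with the mean and SD beside them (bars). The siPVT1 points of TNF spread from 198 to 367, while the siControl points lie between 112 and 119.

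The receptors of TNFSF10 that carry a death domain are TNFRSF10A and TNFRSF10B, on chromosome 8 at 23190452 to 23225102 and 23020133 to 23069031 (both minus strand; 10 and 9 exons; ENSG00000104689.10 and ENSG00000120889.13). TNFRSF10A had normalized counts of 1737, 1521 and 1769.9 in siControl and of 1358.6, 1358.1 and 1529.7 in siPVT1, so siPVT1 replicate 3 lay above siControl replicate 2. Its log2 fold change was −0.24 (SE 0.0836, adjusted p = 0.0351, edgeR quasi-likelihood test). That adjusted p rose to 0.106 without siControl replicate 1, to 0.119 without siControl replicate 3 and to 0.0825 without siPVT1 replicate 2. Genes on the opposite strand overlap exons of both receptors: TNFRSF10A-AS1, at 0 counts in all libraries, and TNFRSF10A-DT for TNFRSF10A, and RHOBTB2, with 546 and 484 normalized counts in siControl and siPVT1, for TNFRSF10B.

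TNFRSF10B, per transcript length the more abundant of the TRAIL death receptors, had 10647, 10289 and 10572 normalized counts in siControl and 10600.5, 9911 and 9486 in siPVT1. The groups overlapped, and the log2 fold change was −0.07 (SE 0.0602, adjusted p = 0.345, edgeR quasi-likelihood test). Counts of the decoy receptor TNFRSF10D, which lacks a working death domain, were 7095 ± 331 in siControl and 7139 ± 380.5 in siPVT1 (SD, n = 3), a log2 fold change of 0.01 (adjusted p = 0.917, edgeR). Its direction turned with DESeq2 (−0.0044), with the size factors of DESeq2 (−0.0043) and with scaling to total counts (−0.14), so no direction is given. TNFRSF10C, a decoy receptor anchored in the membrane, had 3 to 5 counts per library and was not tested. Summed over these 4 receptors, 19277 ± 650.0 normalized counts were found in siControl and 18559 ± 866 in siPVT1 (SD, n = 3), and the ranges of 18527 to 19667 and 17909 to 19542 overlapped.

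FAS (ENSG00000026103.25; chromosome 10, 88953813 to 89029605, plus strand; 9 exons), the receptor of the Fas ligand, fell in all siPVT1 libraries. Normalized counts were 2864, 2714 and 2848 in siControl against 1738, 1667 and 1474 in siPVT1. No siPVT1 library reached the lowest siControl library. The log2 fold change was −0.79 (SE 0.0749, adjusted p = 5.4e-05, edgeR quasi-likelihood test), below the threshold of 1 in size, and it lay between −0.85 and −0.74 when each library was left out in turn. Its exons overlap those of ACTA2 on the opposite strand and of STAMBPL1 on the same strand. ACTA2 had 858 normalized counts in siControl and 746 in siPVT1 and STAMBPL1 had 473 and 528, while the strand setting of the counting is not given in the sources used here. FASLG, the Fas ligand itself, had 0 to 3 counts per library and was not tested.

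TNFRSF9 (4-1BB, ENSG00000049249.10; chromosome 1, 7915871 to 7943165, minus strand; 8 exons), a costimulatory receptor of the same family, had 1684, 1718 and 1676 normalized counts in siControl and 1832, 1595 and 1418 in siPVT1. The siPVT1 values lay on both sides of the siControl values. With a log2 fold change of −0.07 (SE 0.0932, adjusted p = 0.56, edgeR quasi-likelihood test) no difference was shown, and the value was 0.0012 without siPVT1 replicate 3. Its ligand TNFSF9 was higher by adjusted p alone, with 901 ± 43.5 normalized counts in siControl and 1457 ± 123 in siPVT1 (SD, n = 3; log2 fold change 0.69, adjusted p = 0.000169, edgeR).

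TNFAIP3 (ENSG00000118503.18; chromosome 6, 137867214 to 137883314, plus strand; 9 exons) rose in every siPVT1 library. It had 2445, 2318 and 2293 normalized counts in siControl and 5047, 4314 and 3803 in siPVT1. The lowest siPVT1 library was above the highest siControl library. The log2 fold change of 0.90 (SE 0.101, adjusted p = 0.00013, edgeR quasi-likelihood test) was just short of the threshold of 1, and leaving out single libraries moved it from 0.77 to 0.98. WAKMAR2 overlaps its exons on the opposite strand, with 35.7 and 20.2 normalized counts in siControl and siPVT1.

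BIRC3 (ENSG00000023445.17; chromosome 11, 102317484 to 102339403, plus strand; 9 exons) was, per transcript length, the most abundant of the feedback genes. Normalized counts were 8989.6, 9036 and 9210.5 in siControl and 13529, 13479 and 11397 in siPVT1. All siPVT1 libraries were higher, with replicate 3 the lowest of them. The log2 fold change was 0.50 (SE 0.0758, adjusted p = 0.000706, edgeR quasi-likelihood test) and stayed between 0.44 and 0.56 when libraries were left out. An unnamed gene on the opposite strand overlaps its exons.

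TRAF1 (ENSG00000056558.11; chromosome 9, 120902393 to 120929173, minus strand; 8 exons) moved the other way. It had 1561, 1559.8 and 1544 normalized counts in siControl and 906, 752 and 701 in siPVT1. The 3 siControl libraries were nearly identical, with a coefficient of variation of 0.624% against 13.6% in siPVT1, and all siPVT1 libraries were lower. The log2 fold change of −0.98 (SE 0.0974, adjusted p = 6.7e-05, edgeR quasi-likelihood test) missed the threshold of 1 in size by little. It passed that threshold without siPVT1 replicate 1 (−1.11) and with scaling to total counts (−1.13). TNFAIP3, BIRC3 and TRAF1 thus did not move in 1 direction. In bulk RNA, fewer cells that express a gene and less RNA per cell cannot be told apart.

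**Figure D2:**
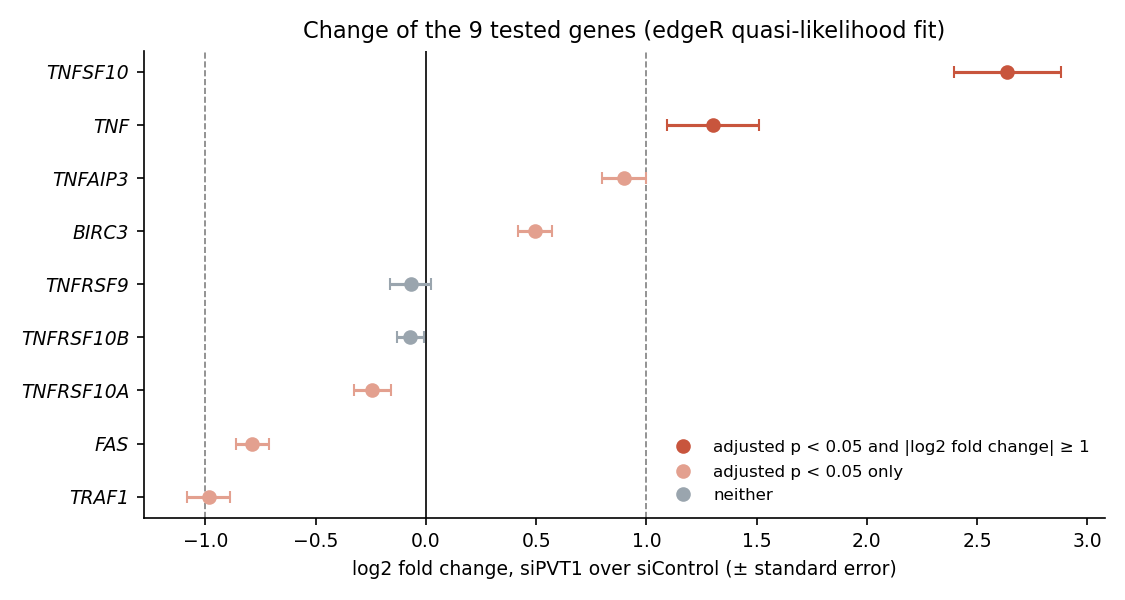
Log2 fold change of siPVT1 over siControl (horizontal axis) with its standard error for the 9 tested genes, from the edgeR fit; dashed lines mark a log2 fold change of 1 in either direction. TNFSF10 (2.64) and TNF (1.30) lie beyond the right line, and TRAF1 (−0.98) lies just inside the left one.

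Of the 9 tested genes, 2 passed both thresholds as higher and 0 as lower, where 11.8% and 9.64% of all 19008 tested genes did. By adjusted p alone 7 passed (4 higher, 3 lower), against 57.9% of all tested genes, and in 6 of the 9 the groups did not overlap (4 above, 2 below), against 65.6%. These shares are near those of all genes, so the counts are not a result about the 10 genes as a group. At an unadjusted p below 0.05, 4 were higher and 3 lower (edgeR), and the share of all genes at that threshold was not taken. DESeq2 also called 2 higher and 0 lower past both thresholds, where it called 2041 higher and 1659 lower of all 19008 tested genes.

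Levels can be compared between genes only per transcript length. In siControl, in RPKM (normalized counts per kilobase of the canonical transcript, scaled for depth), the order was TNFRSF10B (84.4 ± 1.51), BIRC3 (42.4 ± 0.544), FAS (24.4 ± 0.719), TNFRSF10A (20.0 ± 1.61), TNFAIP3 (16.2 ± 0.561), TRAF1 (11.5 ± 0.0716), TNFRSF9 (9.26 ± 0.124), TNF (2.20 ± 0.0739), TNFSF10 (0.169 ± 0.0340) and LTB (0.0357 ± 0.0364). No neighbours in that order overlapped between libraries. In siPVT1, TNFAIP3 (30.2 ± 4.31) ranked above TNFRSF10A (16.9 ± 1.18) and FAS (14.1 ± 1.19), and TRAF1 (5.81 ± 0.790) and TNF (5.40 ± 1.62) overlapped. TNFSF10 reached 1.07 ± 0.113 RPKM, still far below TNFRSF10A, TNFRSF10B and TNFRSF10D but above TNFRSF10C (0.112 ± 0.0142).

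The receptors of TNF itself were unequal in level. TNFRSF1A, the death-domain receptor of TNF, was abundant at 82.2 ± 1.34 RPKM in siControl and 102.4 ± 6.09 in siPVT1 (log2 fold change of normalized counts 0.32, adjusted p = 0.00247, edgeR). TNFRSF1B, which has no death domain, had 10, 7 and 10 counts in siControl and 296, 189 and 108 in siPVT1. All siPVT1 libraries were higher, though they differed from each other by more than 2-fold, and the log2 fold change was 4.59 (SE 0.499, adjusted p = 0.00011, edgeR quasi-likelihood test). Even so it reached only 1.85 ± 0.995 RPKM. LTBR, the lymphotoxin beta receptor, was at 59.4 ± 0.764 RPKM in siControl and 47.1 ± 2.94 in siPVT1 (log2 fold change of normalized counts −0.33, adjusted p = 0.00224, edgeR). SCNN1A overlaps its exons on the opposite strand, with 107 and 85.5 normalized counts.

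**Figure D3:**
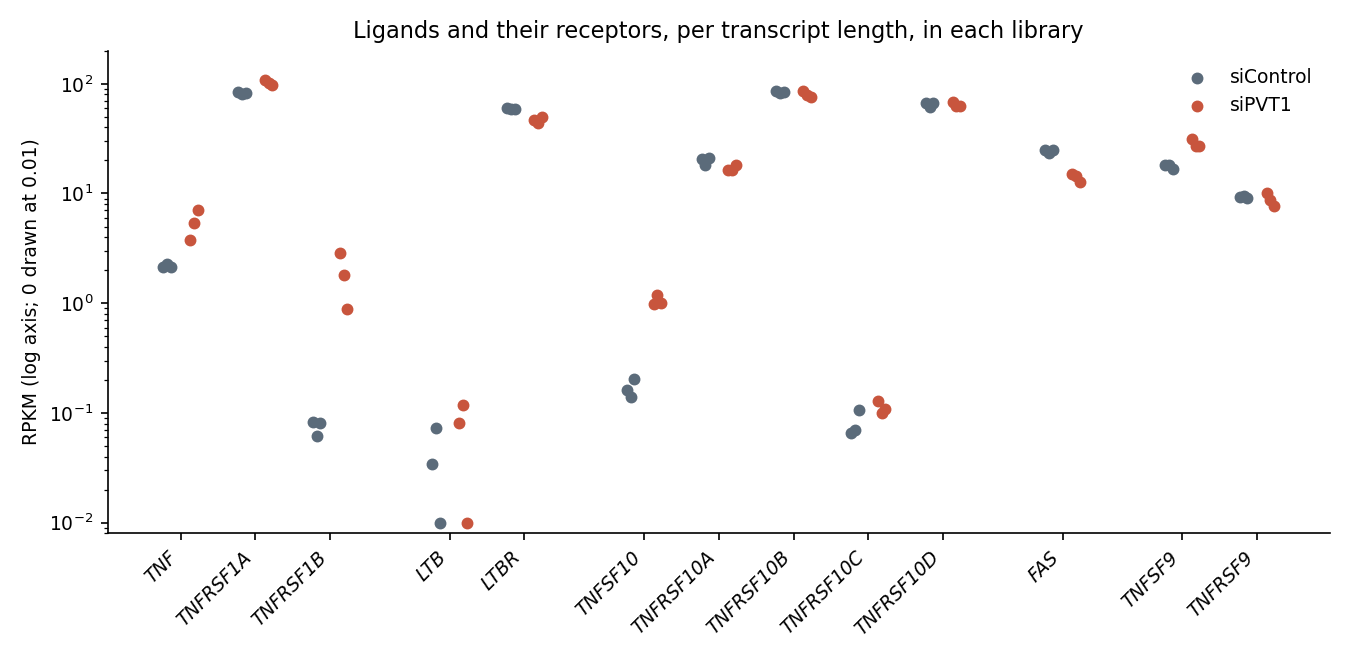
RPKM (vertical log axis; 0 drawn at 0.01) of ligands and their receptors in each library, siControl and siPVT1 side by side. TNF and TNFSF10 sit below TNFRSF1A, TNFRSF10A, TNFRSF10B and TNFRSF10D in both groups, and TNFRSF1B moves from 0.0750 to 1.85.

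The wider pathway was read in 5 gene lists. The counts are to be read beside the shares of all tested genes, of which 11.8% were called higher, 9.64% were called lower and 57.9% passed by adjusted p alone. The share at an unadjusted p below 0.05 was not taken. It cannot be below 57.9%, so the counts at that threshold are not a result about the lists. Of 25 other TNF receptor superfamily genes, 18 were tested, 6 were called higher and 0 lower, as with DESeq2 (median log2 fold change 0.50, against 0.0014 for all tested genes; 11 higher and 3 lower at an unadjusted p below 0.05). Besides TNFRSF1B these included TNFRSF11B (osteoprotegerin, a soluble decoy that binds TNFSF10), which went from 2694 ± 52.1 to 9692 ± 402 normalized counts (log2 fold change 1.85, adjusted p = 5.1e-07, edgeR), and TNFRSF6B, a soluble decoy of the Fas ligand, which went from 1485 ± 155 to 5744 ± 2059 (1.95, adjusted p = 0.000227, edgeR). TNFRSF6B lies within the annotated readthrough gene RTEL1-TNFRSF6B, so its counts are uncertain. TNFRSF4 (2.08), TNFRSF25 (1.18) and CD40 (1.16), other receptors of the family, also rose. TNFRSF4 had 8.57, 6.06 and 4.62 normalized counts in siControl. It passed the filter of 5 normalized counts in 3 libraries only with its siPVT1 libraries, the group where it is high.

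Of 15 other ligands of the family, 10 were tested, 4 were called higher and 2 lower (median log2 fold change 0.72). TNFSF15 rose from 1702 ± 56.0 to 4999 ± 179 normalized counts (log2 fold change 1.55, adjusted p = 1.0e-06, edgeR quasi-likelihood test) and CD70, the ligand of CD27, from 743 ± 26.7 to 1966 ± 169 (1.40, adjusted p = 4.7e-06, edgeR). TNFSF12 (1.45) and TNFSF13B (1.27) were also higher. TNFSF13B was at 4.76 to 9.24 normalized counts per siControl library, and its call was lost in DESeq2 and in 3 of the fits that left out a library. It passed the filter of 5 normalized counts in 3 libraries only with its siPVT1 libraries, the group where it is high. LTA, which lies beside TNF and LTB on chromosome 6, had 18, 15 and 17 counts in siControl and 0, 3 and 3 in siPVT1, so it was lower in every siPVT1 library while TNF was higher. Its summed counts were 7.68-fold lower after scaling (exact 95% interval 3.29 to 21.9, counting error only). LTA reached 5 normalized counts only in siControl, and only 3 of the fits that left out a library tested it. Its place among the ligands called lower thus rests on the group where it is high. TNFSF12 and TNFSF13 overlap the annotated readthrough gene TNFSF12-TNFSF13, so their counts are uncertain. TNFSF13 (−1.06) was called lower but lost the call in 3 fits that left out a library.

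Of 30 genes of the receptor complex and of death signalling, 29 were tested and 0 were called in either direction by edgeR or by DESeq2. At an unadjusted p below 0.05, 10 were higher and 12 lower. By adjusted p alone 9 were higher, 12 were lower and 8 missed it (edgeR), with a median log2 fold change of 0.02. The ends of the range, chosen after their values were seen, were BID (0.94), which carries the death signal to mitochondria, and RNF31 (−0.76), a subunit of the linear ubiquitin ligase. The direction was therefore mixed within the machinery on which TNF and TNFSF10 act.

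Of 22 other TNF-induced NF-kB target genes, 21 were tested, 13 were called higher and 1 lower (median log2 fold change 1.22). ICAM1, an adhesion molecule, went from 1472 ± 44.1 to 15469 ± 2252 normalized counts (log2 fold change 3.39, adjusted p = 6.0e-07, edgeR quasi-likelihood test). IL6, a cytokine, went from 593 ± 28.2 to 4465 ± 1109 (2.91, adjusted p = 5.5e-06, edgeR) and SOD2, a mitochondrial enzyme, from 10083 ± 583 to 64673 ± 2844 (2.68, adjusted p = 2.9e-07, edgeR). CCL20 (2.11), TNFAIP6 (1.97) and CXCL8 (1.81), all secreted proteins, also rose. TNFAIP6 had 5.71, 1.01 and 4.62 normalized counts in siControl. It passed the filter of 5 normalized counts in 3 libraries only because of its siPVT1 libraries. TNIP3 (−1.19), an A20-binding protein and the gene called lower, was chosen after its values were seen. TNFAIP3 and BIRC3 rose less than the median of this list and TRAF1 fell; the differences in size were not tested.

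Of 10 genes for shedding of TNF and its receptors and for decay of TNF mRNA, all were tested and 2 were called higher, 0 lower, by edgeR and by DESeq2 (median log2 fold change 0.73; 8 higher and 1 lower by adjusted p alone and by unadjusted p below 0.05). RHBDF1 (1.26, SE 0.0844, adjusted p = 1.0e-05, edgeR quasi-likelihood test) and RHBDF2 (1.05) encode the inactive rhomboid proteins that carry the TNF-releasing protease ADAM17 to the cell surface. RHBDF2 had 2829.7, 2418 and 1669.7 normalized counts in siPVT1, and its call was lost without siPVT1 replicate 1 (0.86) or replicate 2 (0.995).

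**Figure D4:**
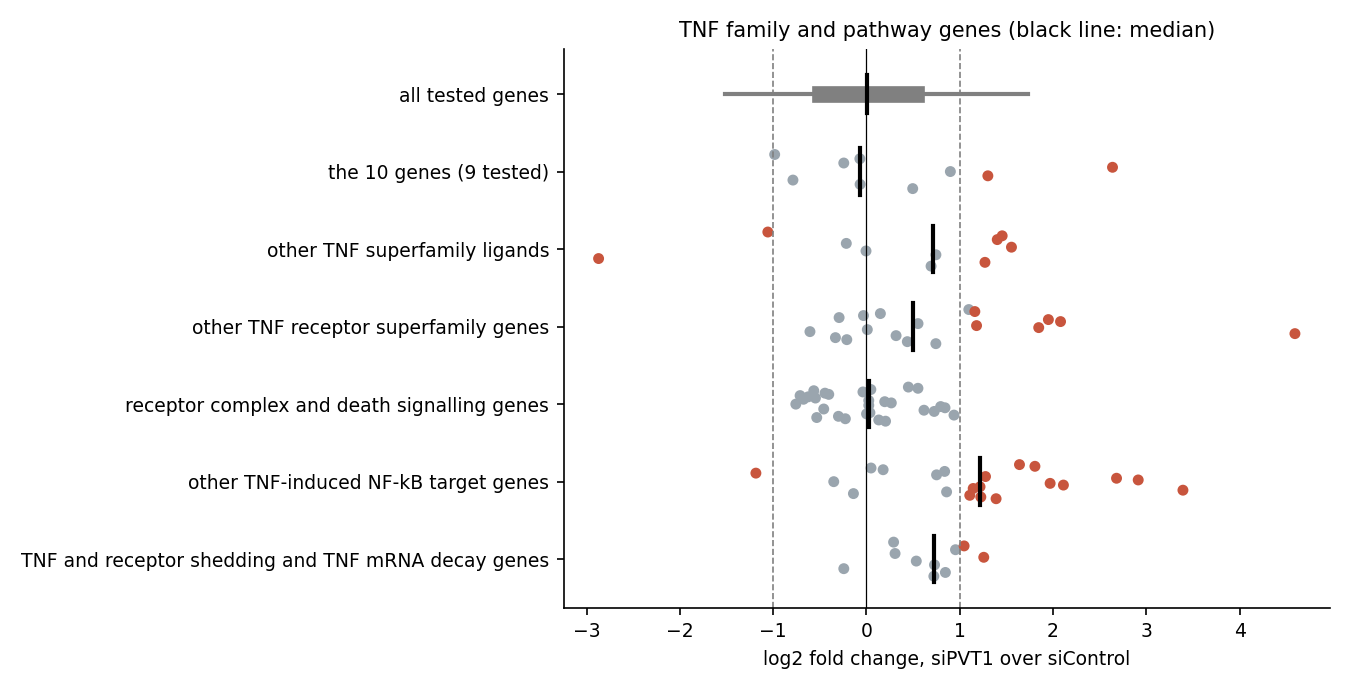
Log2 fold change (horizontal axis) of every tested gene of the 10 and of the 5 lists (points; red where called), with the median of each list (black line); the grey bars at the top run from percentile 5 to 95 (thin) and 25 to 75 (thick) of all tested genes. The NF-kB targets and the receptor genes lie mostly to the right of 0, and the complex and death signalling genes lie on both sides.

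The siPVT1 libraries did not deviate alike in all genes. TNF was lowest in siPVT1 replicate 1 and highest in replicate 3 (198, 281 and 367), while TNFAIP3 was highest in replicate 1 and lowest in replicate 3. CCL20 had 115, 162 and 197 normalized counts and so had the order of TNF. TNFRSF1B had 329.6, 207 and 101 and TNFRSF6B 7779.7, 5789 and 3663, the order of TNFAIP3. Both orders occurred among the NF-kB targets, as IL6 had 3435, 4321 and 5639.6 and ICAM1 had 17761, 15387 and 13259. These are examples chosen after their values were seen, and the order of the libraries was not tested. The 3 genes nearest to TNF, by root mean square difference of log2 values centred on siControl over the 6 libraries, were CXCL1 (0.0855), RHEBL1 (0.0913) and MT-ATP8 (0.0956). CXCL1, a chemokine, had 21161, 27366 and 39303 normalized counts in siPVT1. Those nearest to TNFAIP3 were MAP3K20 (0.0279), GDPD1 (0.0302) and MXRA7 (0.0333).

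**Figure D5:**
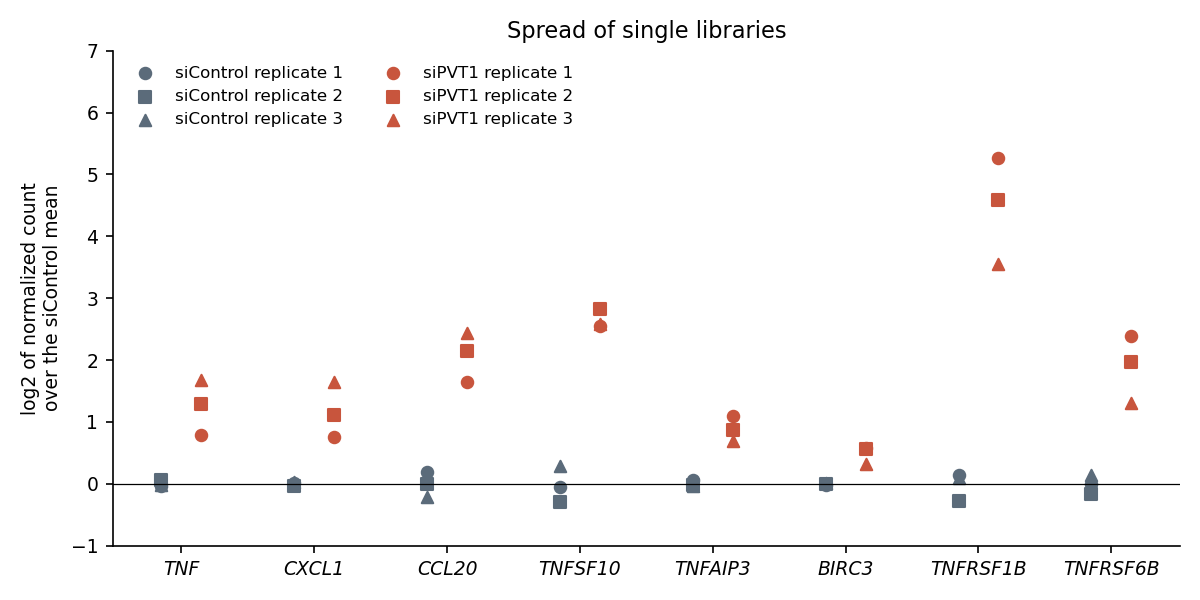
Log2 of the normalized count over the siControl mean (vertical axis) for 8 genes in each library, with the replicates as different markers. In siPVT1, replicate 3 is the highest library for TNF, CXCL1 and CCL20 and the lowest for TNFAIP3, BIRC3, TNFRSF1B and TNFRSF6B.

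Markers of cell types other than the line were summed to see what else moved with these genes. Of all tested genes, 11.8% were called higher and 9.64% lower. Of 10 monocyte or macrophage markers, 6 were tested, 0 were called higher and 3 lower. Their sum was 840 to 1022 normalized counts in siControl and 642 to 943 in siPVT1, and TYROBP and FCGR3A were at 0 in all libraries. Of 9 T or NK cell markers only 1 was tested, and 0 were called higher and 1 lower. Their sums were 27.6 to 32.3 against 6.68 to 17.9, with CD3E and GNLY at 0. The B cell receptor subunits CD79B and CD79A, chosen after their values were seen, moved apart, with CD79B going from 12.4 ± 3.80 to 51.2 ± 7.90 normalized counts and CD79A from 17.3 ± 1.79 to 5.31 ± 2.18 (log2 fold changes 2.03 and −1.70, both called). All 4 endothelial markers were called higher, with sums of 2066 to 2110.4 against 8665 to 10932, and 3 of 6 fibroblast markers were, with sums of 217 to 229 against 808 to 863. CD14, CD163, CD8A and CD79A, all called lower, passed the filter of 5 normalized counts in 3 libraries only with their siControl libraries. PDGFRA, a fibroblast marker called higher, passed it only with its siPVT1 libraries. These calls thus rest on the group where the gene is high. Single genes made up most of some sums. CDH5 averaged 1998 normalized counts in siControl and 9314 in siPVT1 in the endothelial list. CD68 averaged 584 and 721 in the monocyte or macrophage list. The part of endothelial or fibroblast markers in the results above was not tested. Of 11 epithelial and ovarian carcinoma markers, 2 were called higher and 0 lower. KRT8 and KRT18, keratins of simple epithelia, averaged 8575 and 8551 normalized counts in siControl, while the adhesion molecules EPCAM and CDH1 averaged 96.7 and 27.1. KRT8, KRT18, KRT19, PAX8 and MSLN were higher in every siPVT1 library, and KRT7 and ERBB2 were lower. For EPCAM, CDH1, MUC1 and MUC16 the groups overlapped. The siPVT1 libraries were far apart in MUC16 (199, 635 and 17.9) and CDH1 (13.4, 47.0 and 0).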

How the data were processed

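SK-OV3 RNA was compared between siControl and siPVT1 (3 libraries each, 48 h). The authors deposited estimated counts per gene; per the labels, STAR 2.7.3a, Salmon 0.14.1 and GRCh38.p13 were used. Of the counts, 6 columns were matched to samples by name. These estimated counts, given as whole numbers per gene symbol, were used as deposited and scaled by TMM factors from all genes, and the 19008 genes that reached 5 normalized counts in 3 or more libraries were tested with edgeR 4.0.16 (R 4.3.3), by its quasi-likelihood test with Benjamini-Hochberg adjustment over all tested genes. Standard errors were derived from the F statistic (log2 fold change over the root of F). Gene identifiers, coordinates (GRCh38), exons and the canonical transcripts behind RPKM were taken from GENCODE 44 by symbol. Depth limits genes under about 3 counts per library, and intervals cover counting error only.

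The 10 genes and the gene lists were chosen with earlier results of these data known. Genes named besides the 10 and PVT1 were the called genes of each list, at most 6 by size of change, 7 receptors and ligands fixed by name, and the 3 nearest profiles of TNF and of TNFAIP3. Genes that overlap a named gene, cell type markers, BID, RNF31, TNIP3, CD79A and CD79B were named outside this rule. Alternatives were DESeq2 1.42.0, its size factors, total count scaling, other filters, a replicate block, a test against a 2-fold change, adjusted p alone, and leaving out each library. The fits were tested on simulated data. The sum of a list of markers of another cell type is not reported here.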

Additional observations from a re-analysis of the deposited data

How the results depend on the processing

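Over 14 alternatives, 117 of 126 values of the 9 tested genes kept their direction and their call or lack of one. Over 34 named genes, 438 of 473 values did. The adjusted p could cross 0.05 without a change of call, as for TNFRSF10A when some libraries were left out. For TNFRSF10B it went from 0.345 to 0.0094 with total count scaling (log2 fold change −0.22, edgeR quasi-likelihood test). With a test against a 2-fold change (edgeR), the calls were 1976 genes in all, 1 of the 10 genes higher, 3 receptor genes, 9 NF-kB targets and 1 shedding or decay gene. With adjusted p alone, they were 11007 in all, 4 of the 10 genes higher and 3 lower, 11 receptor genes, 21 complex and death signalling genes and 9 shedding or decay genes. Scaling to total counts moved the median over all genes (log2 fold change) from 0.0014 to −0.15 and the calls from 2248 higher and 1833 lower to 1835 and 2355, and gave 1 of the 10 genes lower (TRAF1, −1.13) and 1 shedding or decay gene. Leaving out each library gave 0 to 1 of the 10 genes lower and 1 to 3 shedding or decay genes. TNFRSF9 ranged from −0.18 to 0.0012 over these fits. TNFRSF10D, at 0.0089, was −0.0044 with DESeq2, −0.0043 with its size factors, −0.14 with total count scaling and −0.050 to 0.024 over the fits that left out a library. The cause was not tested.

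Deviations of samples with the same replicate number correlated at −0.032, 0.021 and 0.00086, and not every library correlated best with its own number. These values do not show a pairing, but they cannot tell whether libraries of the same number shared a culture or a day. The replicate block gave 3924 calls in place of 4081 and the same 2 higher and 0 lower of the 10 genes.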
